A study of Mus musculus with 24 samples.

Results

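The 10 genes described here encode proteins of protein folding in the endoplasmic reticulum and a transcription factor that acts on them: Hspa5, Xbp1, Dnajb9, Herpud1, Sdf2l1, Pdia4, Pdia6, Hsp90b1, Calr and Creld2. They were taken by gene symbol from the tables of both tissues, which each held 40481 genes, and all 10 were found and tested in the ileum and in the liver. RNA was sequenced from C57BL/6 mice after a 75% small bowel resection, with 3 libraries in each of 8 groups (24 in all). In each tissue the groups were floxed mice (Abca1 fl/fl) given vehicle, floxed mice given GW3965, Villin-Cre mice (Abca1 fl/fl X Villin-Cre) given vehicle, and Villin-Cre mice given GW3965. GW3965 is a synthetic compound that activates the liver X receptors, and ABCA1 is a cholesterol exporter. The drug was dosed orally 2 times weekly (1 mg/kg/day) in weeks that made up the last 5 of 10 after surgery, and the vehicle was 0.5% carboxymethyl cellulose. Every group carried the floxed allele and had been operated on, so the comparisons hold no unoperated or wild-type group. The Villin promoter drives Cre in intestinal epithelium, so other cells of the gut wall and the liver keep the gene by design. No source used here gives the age of the mice. The question was whether this low oral dose acts on the receptor in the intestine.

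Proteins bound for secretion, for membranes or for lysosomes fold in the endoplasmic reticulum. When unfolded proteins build up there, sensors in its membrane start the unfolded protein response: IRE1 splices the Xbp1 messenger RNA, PERK slows translation, and ATF6 is cut and moves to the nucleus. Spliced XBP1 and cleaved ATF6 then raise the genes of chaperones, of disulfide isomerases and of the machinery that removes misfolded proteins. Cells that secrete much protein, such as goblet, Paneth and plasma cells in the gut and hepatocytes in the liver, keep a large endoplasmic reticulum and rely on XBP1. Hspa5 encodes BiP, the HSP70 chaperone of this compartment, and Hsp90b1 encodes its HSP90, GRP94. Dnajb9 (ERdj4) is a J-domain partner of BiP, and Sdf2l1 works with BiP and J-domain partners to keep proteins soluble. Calr encodes calreticulin, a calcium-binding lectin chaperone of glycoproteins, and Pdia4 and Pdia6 are protein disulfide isomerases. Creld2 is a secreted and reticulum-resident protein induced by stress of this compartment, and Herpud1 is a membrane protein of the degradation machinery, so neither is a chaperone in the strict sense. Reads were counted per gene, so spliced and unspliced Xbp1 were not told apart.

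Because a shared promoter element is how many of these genes are known to be raised together, the promoter windows of the members were searched. RefSeq windows (GRCm38.p6) from 250 bases before to 50 bases after the start were matched for 10 of 10 members. The ER stress element, which reads CCAAT, then 9 bases of any kind, then CCACG, was found on either strand in 5 of the 10 member windows (Hspa5, Hsp90b1, Calr, Pdia6 and Creld2), against 0.119% of 32851 windows. The Hsp90b1 window held it 2 times, once on each strand. The ER stress element II, ATTGG, then 1 base of any kind, then CCACG, was found in the Herpud1 window and in 0.0365% of all windows. The core TGACGTGG of the unfolded protein response element was in none of the 10 and in 0.676% of all windows. The windows of Xbp1, Dnajb9, Sdf2l1 and Pdia4 held none of these 3 letter runs. No member window held more than 1 kind of element, so none overlapped another. A match describes letters and not a bound site. The genes were already known to be raised through such elements, so these counts describe the members and test nothing. Shown 5′ to 3′ on the strand of the gene, with the element in capitals, are the upstream stretches of the 3 genes with the element that fell most in floxed ileum under GW3965, Hsp90b1 (chr10:86705510-86705694, minus strand), Creld2 (chr15:88819396-88819645, plus strand) and Pdia6 (chr12:17266339-17266544, plus strand):
Hsp90b1: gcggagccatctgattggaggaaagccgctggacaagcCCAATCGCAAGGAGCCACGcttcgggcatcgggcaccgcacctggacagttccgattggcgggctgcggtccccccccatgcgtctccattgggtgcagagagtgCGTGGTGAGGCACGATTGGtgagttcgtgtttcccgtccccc
Creld2: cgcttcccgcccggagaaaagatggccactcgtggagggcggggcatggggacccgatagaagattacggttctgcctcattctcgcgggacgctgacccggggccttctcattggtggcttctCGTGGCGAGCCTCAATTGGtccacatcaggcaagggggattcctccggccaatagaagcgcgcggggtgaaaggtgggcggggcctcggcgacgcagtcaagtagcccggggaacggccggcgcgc
Pdia6: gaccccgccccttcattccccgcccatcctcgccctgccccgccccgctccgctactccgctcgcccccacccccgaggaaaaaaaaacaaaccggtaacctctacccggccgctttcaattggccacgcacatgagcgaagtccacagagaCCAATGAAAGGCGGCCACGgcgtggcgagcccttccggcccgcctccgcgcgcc
The element is read as CCAAT to CCACG in Pdia6 and in the upstream copy of Hsp90b1, and from the other strand, as CGTGG to ATTGG, in Creld2 and in the downstream copy of Hsp90b1. Whether holding an element goes with a change in level was not tested. The sites in Hspa5 (chr2:34772020-34772048, plus strand), Calr (chr8:84847070-84847098, minus strand) and Herpud1 (chr8:94386372-94386392, plus strand) are given with 5 bases on either side, the first 2 for the 2 members with the highest level and the last for the ER stress element II:
Hspa5: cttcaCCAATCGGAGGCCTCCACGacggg
Calr: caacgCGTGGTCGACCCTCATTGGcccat
Herpud1: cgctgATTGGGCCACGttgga
The site starts 65 bases before the RefSeq start in Hspa5, 162 in Calr, 52 in Herpud1, 212 and 107 in Hsp90b1, 98 in Pdia6 and 126 in Creld2. The GENCODE annotation of the genes' positions starts Hspa5 further upstream than RefSeq does, at 34771970, so there the Hspa5 site lies within an annotated exon, while the other sites lie outside exons.

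The ileal libraries held 16.96 to 24.2 M assigned reads and the liver libraries 26.4 to 32.3 M. Levels are in CPM, a gene's reads scaled to the library's total, given as mean ± SD with n = 3, and differences are on the log2(CPM + 0.5) scale with the standard error from limma, adjusted over all genes tested. Libraries of a group were close: the variance between them was 2.56 to 3.30 times the Poisson variance of their reads in 10 ileal pairs and 2.59 to 3.13 times in 10 liver pairs, against 10.5 to 41.6 and 5.68 to 30.9 between groups. In each tissue 1 library stood apart from its group, in the ileum replicate 3 of the floxed GW3965 group (ratios of 9.30 and 9.77) and in the liver replicate 1 of that group (9.08 and 9.10). No label says which animal a library came from, so a p-value here reflects how much libraries vary, which can be technical variation alone. With the close libraries averaged, which leaves 5 units per tissue and lets the spread rest on 1 pair, limma called 0 of the 10 members in each of the 12 comparisons, and between 0 and 8 had an unadjusted p under 0.05. The targeted gene, Abca1, stood at 57.2 ± 2.83 CPM for floxed and 28.3 ± 2.47 CPM in Villin-Cre ileum given vehicle and at 335 ± 7.81 and 225 ± 0.25 CPM in the liver, and at 372 ± 105 and 53.8 ± 0.158 CPM (ileum) and 470.2 ± 8.03 and 379 ± 2.71 CPM (liver) with GW3965, in sums that include exons outside the deleted part. The predicted gene Gm26917 took 10.4 to 11.6% and 11.5 to 12.2% of ileal reads in floxed and Villin-Cre mice given vehicle, and 6.56 to 7.905% and 3.92 to 4.199% with GW3965, and 2.80 to 5.54% in the liver. Scaling by the median of gene ratios shifts values by 0.24 and 0.26 for the genotype comparisons of the ileum, by -0.27 and -0.23 for those of the liver, by 0.11 for GW3965 in Villin-Cre ileum and by under 0.1 elsewhere. As these are whole tissues, fewer cells of a type and less RNA per cell cannot be told apart.

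Positions are those of the GENCODE annotation of GRCm38, in which all 10 are protein-coding. They place Hspa5 (ENSMUSG00000026864) on chromosome 2 from 34771970 to 34777547, Xbp1 (ENSMUSG00000020484) on chromosome 11 from 5520659 to 5525893, Dnajb9 (ENSMUSG00000014905) on chromosome 12 from 44205559 to 44210326, Herpud1 (ENSMUSG00000031770) on chromosome 8 from 94386438 to 94395377 and Sdf2l1 (ENSMUSG00000022769) on chromosome 16 from 17130138 to 17132383. The others are Pdia4 (ENSMUSG00000025823) on chromosome 6 from 47796141 to 47813430, Pdia6 (ENSMUSG00000020571) on chromosome 12 from 17266545 to 17284770, Hsp90b1 (ENSMUSG00000020048) on chromosome 10 from 86690209 to 86705509, Calr (ENSMUSG00000003814) on chromosome 8 from 84841850 to 84846934 and Creld2 (ENSMUSG00000023272) on chromosome 15 from 88819646 to 88826683. Hsp90b1 shares 415 exonic bases (10.29% of its exonic length) with 1810014B01Rik, a transcribed pseudogene on the other strand. Part of the Hsp90b1 reads is thus uncertain, because no source used here states how strand was handled. On the same strand Hsp90b1 shares 84 bases (2.08%) with Gm15344 and 133 bases (3.3%) with Gm25745, which is uncertain whatever the strand handling. Pdia6 shares 50 bases with Atp6v1c2 on the other strand. Dnajb9 and Pdia4 each share 14 bases with a miRNA gene.

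Together the 10 genes took 0.148 to 0.158% of all assigned reads in the ileum of floxed mice given vehicle and 0.224 to 0.230% in the liver. Per kilobase of exon, Calr was highest in ileum of floxed mice given vehicle, at 159 ± 5.86 CPM per kb, followed by Hspa5 at 74.5 ± 1.74. Hsp90b1 at 57.6 ± 4.32 and Xbp1 at 56.8 ± 3.33 CPM per kb did not differ beyond their spread. Below them came Pdia4 at 39.4 ± 0.657, Herpud1 at 34.9 ± 2.52, Creld2 at 28.5 ± 0.562 and Pdia6 at 25.6 ± 1.38 CPM per kb. The lowest levels per length were those of 2 genes whose products work with BiP, Sdf2l1 at 17.4 ± 0.788 and the J-domain protein gene Dnajb9 at 7.16 ± 1.06 CPM per kb. In the liver of the same mice the order was Calr (198 ± 5.46 CPM per kb), Hspa5 (125 ± 1.9), Pdia4 (101 ± 1.79), Herpud1 (94.8 ± 1.03), Hsp90b1 (79.2 ± 2.11), Pdia6 (48.3 ± 1.22), Xbp1 (42.3 ± 1.97), Creld2 (14.5 ± 1.25), Dnajb9 (12.3 ± 0.899) and Sdf2l1 (11.9 ± 0.213), where the mean of Sdf2l1 lay within 1 SD of that of Dnajb9. Levels were set across 2 tables that may have been scaled separately, so they were not tested between the tissues.

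In the ileum of floxed mice, GW3965 went with lower levels of the chaperones. Of the 10 members, 8 fell and 0 rose, with Dnajb9 and Herpud1 not passing the test, and the summed level went from 1538 ± 53.1 to 1033 ± 17.3 CPM. Over all 18656 genes tested, 20.9% were called lower and 14.7% higher (limma, adjusted p under 0.05). The higher ones were 41.2% of the calls, or 53.5% after scaling by the median of gene ratios. That scaling left 8 members lower and 0 higher, against 15.6% and 18% of all genes. The median difference was -0.66 over the members and -0.077 over all genes.

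Hspa5, Hsp90b1 and Calr all fell. Hspa5, the gene of BiP, stood at 317, 322 and 307 CPM in the vehicle libraries and at 187, 189.6 and 192 CPM with GW3965. All 3 GW3965 libraries lay below all 3 vehicle libraries, and the library that stands apart for other genes lay with the others of its group. The log2 difference of Hspa5 was -0.73 ± 0.046, adjusted p 2.61e-09 (limma). Hsp90b1, the HSP90 of the reticulum, stood at 231, 250.1 and 215 CPM with vehicle and 137, 138 and 138 CPM with GW3965, a difference of -0.75 ± 0.061, adjusted p 6.15e-08 (limma). Calr fell from 473, 460.0 and 439.7 CPM to 301, 304 and 343 CPM, a log2 difference of -0.54 ± 0.056, adjusted p 1.04e-06 (limma). Of the 10 members, 8 (the genes that fell) had all GW3965 libraries below all vehicle libraries and 0 had them above, against 26.7% and 17.1% of all genes.

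The disulfide isomerases fell too. Pdia6 went from 92.1, 102 and 94.1 CPM to 49.0, 51.1 and 56.5 CPM (-0.87 ± 0.069, adjusted p 4.07e-08, limma). Pdia4 went from 93.4, 96.3 and 93.7 CPM to 61.1, 64.0 and 58.9 CPM (-0.62 ± 0.056, adjusted p 2.09e-07, limma). Both isomerases had their treatment groups apart. Creld2 had the largest fall of the 10, from 39.8, 38.3 and 38.6 CPM to 19.8, 20.1 and 19.7 CPM (-0.95 ± 0.085, adjusted p 1.61e-07, limma), and Sdf2l1 went from 19.3 ± 0.873 to 11.8 ± 0.6 CPM (-0.69 ± 0.098, adjusted p 3.28e-05, limma). Xbp1, the transcription factor, fell from 189.7, 192 and 172 CPM to 127, 126 and 109.9 CPM (-0.61 ± 0.063, adjusted p 9.91e-07, limma).

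The 2 members that were not called were the J-domain protein and the degradation component. Dnajb9 stood at 17.9, 21.1 and 15.8 CPM with vehicle and 18.1, 18.3 and 21.8 CPM with GW3965, in overlapping groups, with a log2 difference of 0.092 and a 95% interval of -0.15 to 0.33. Herpud1 stood at 87.7, 76.1 and 80.4 CPM with vehicle and 122, 127 and 64.9 CPM with GW3965. Its low value of 64.9 CPM belongs to the library that stands apart, and the other 2 lay above every vehicle library. With all libraries the log2 difference of Herpud1 was 0.30 ± 0.17, adjusted p 0.18 (limma), and without that library it was 0.61 and passed the threshold.

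**Figure D1:**
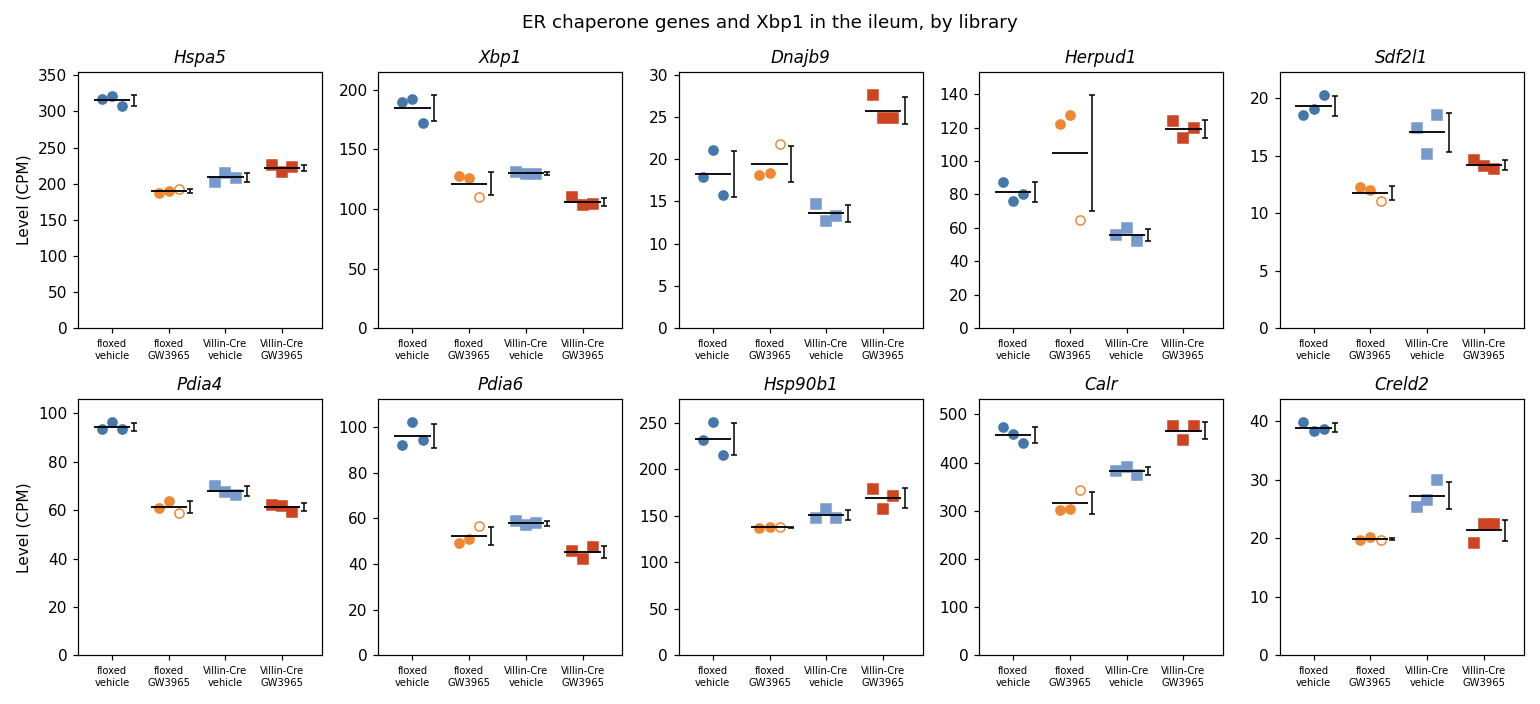
Levels in the ileum in CPM (vertical axes, linear from 0) for the 10 genes, with 1 point per library; circles are floxed and squares Villin-Cre mice, horizontal lines are group means and bars beside them ± 1 SD (n = 3), and the open circle is the library that stands apart. The floxed vehicle libraries are the highest for Hspa5, Hsp90b1, Pdia4, Pdia6, Creld2, Xbp1 and, by little, Sdf2l1, whereas Dnajb9 is highest in Villin-Cre mice given GW3965 (24.8 to 27.6 CPM).

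In Villin-Cre mice, GW3965 went with changes in both directions. Of the 10 members 4 rose (Dnajb9, Herpud1, Hsp90b1 and Calr), 5 fell (Xbp1, Sdf2l1, Pdia4, Pdia6 and Creld2), and Hspa5 was not called; over all genes 21.5% were called higher and 31.1% lower (limma). The median was -0.032 over the members and -0.11 over all genes, and the summed level went from 1111 ± 17.2 to 1249 ± 42.2 CPM. With scaling by the median of gene ratios, 5 rose, Hspa5 among them at 0.20, and 3 fell, with Pdia4 at -0.035 and Sdf2l1 at -0.14 no longer called. Over all genes 27% were then called higher and 26.8% lower.

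The 2 genes that had not been called in floxed mice had the largest rises. Herpud1 went from 55.9, 59.7 and 52.4 CPM to 124, 114 and 120.0 CPM (1.08 ± 0.17, adjusted p 3.65e-05, limma). Dnajb9 went from 14.7, 12.7 and 13.3 CPM to 27.6, 24.9 and 24.8 CPM (0.90 ± 0.11, adjusted p 3.59e-06, limma). In 5 of the 10 members, these 2 with Hspa5, Hsp90b1 and Calr, every GW3965 library lay above every vehicle library, and in the other 5 below, against 25.4% and 36.2% of all genes. The gap was small for Hspa5 (214.9 and 216.61 CPM in the nearest libraries) and for Hsp90b1 (157.23 and 157.35 CPM). Without a filter Hsp90b1 was not called (adjusted p 0.0572, limma). Calr rose, with vehicle libraries at 373 to 390.0 CPM and GW3965 libraries at 446 to 477 CPM (0.29 ± 0.056, adjusted p 0.000368, limma) and so did Hsp90b1, at 147 to 157 CPM and 157 to 178 CPM (0.16 ± 0.061, adjusted p 0.034, limma). Hspa5 stood at 203, 215 and 208 CPM with vehicle and 226, 217 and 222 CPM with GW3965, with a difference of 0.087 and a 95% interval of -0.011 to 0.18. Among the genes that fell, Pdia6 had means of 57.8 ± 0.995 and 45.1 ± 2.65 CPM (-0.36 ± 0.069, adjusted p 0.000357, limma). Creld2 had means of 27.3 ± 2.33 and 21.3 ± 1.82 CPM (-0.35 ± 0.085, adjusted p 0.00234, limma), and Xbp1 of 129.8 ± 1.17 and 106 ± 3.53 CPM (-0.29 ± 0.063, adjusted p 0.00085, limma). Sdf2l1 and Pdia4 fell by smaller amounts, -0.25 ± 0.098, adjusted p 0.0407 and -0.15 ± 0.056, adjusted p 0.0332 (limma).

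The test of the difference between the genotypes, the interaction of genotype and GW3965, was positive for 10 of 10 members in the ileum, which means a change with GW3965 that was less negative or more positive in Villin-Cre than in floxed mice. Over all genes 14.6% had a positive and 18.4% a negative interaction past the threshold (limma), and the median was 0.69 over the members and -0.035 over all genes. Hsp90b1 had the largest value (0.91 ± 0.087, adjusted p 6.18e-07), followed by Calr (0.82 ± 0.079), Hspa5 (0.82 ± 0.065, adjusted p 8.52e-08), Dnajb9 (0.81 ± 0.16) and Herpud1 (0.78 ± 0.24, adjusted p 0.0178). Creld2, Pdia6, Pdia4 and Sdf2l1 lay between 0.44 and 0.60, and Xbp1 had the smallest value (0.32 ± 0.089, adjusted p 0.0118). The order of the last members is not separated by their standard errors. Without the library that stands apart 10 were called, with Herpud1 at 0.47 and Xbp1 at 0.25, and 10 also after scaling by the median of gene ratios. That scaling gave 16.3% of all genes a positive and 17.7% a negative interaction past the threshold. Without a filter 9 were called (Herpud1 had an adjusted p of 0.055, limma), and 9 when replicate 3 of floxed vehicle, replicate 2 of Villin-Cre vehicle or replicate 1 of Villin-Cre GW3965 was left out, where Sdf2l1 (0.40, 0.36 and 0.42) was not called. Fits that left out 1 library at a time called 5417 to 7249 of all 18656 genes.

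**Figure D2:**
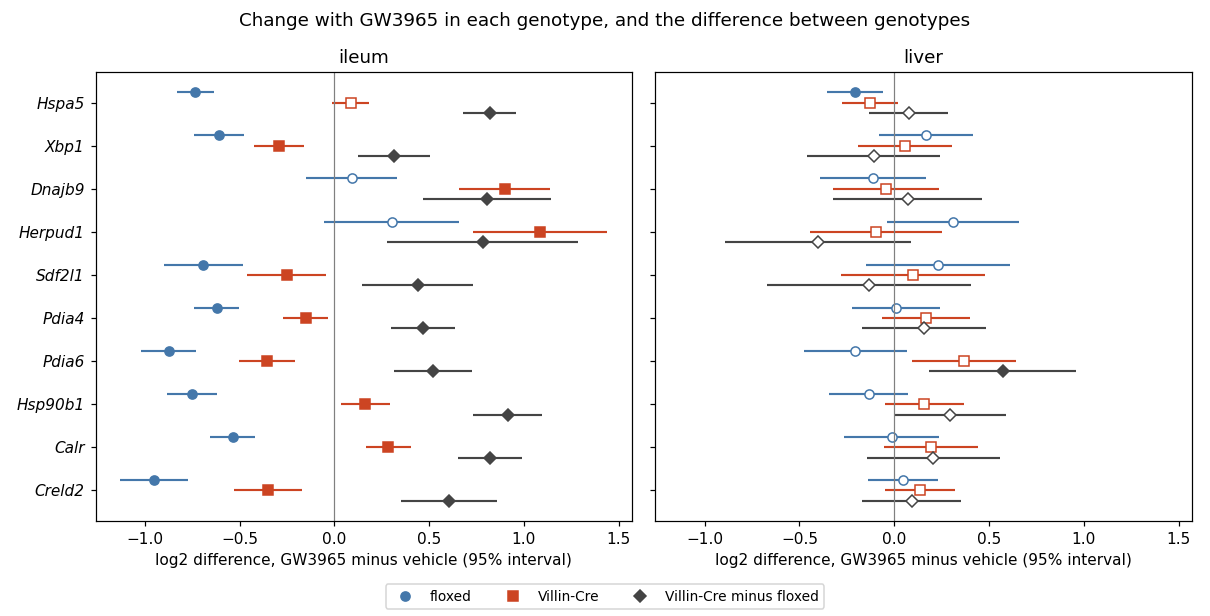
Log2 difference between GW3965 and vehicle with its 95% interval (horizontal axes) for each gene in ileum and liver; circles are floxed, squares Villin-Cre, and diamonds the difference between them, with filled symbols where the adjusted p of limma was under 0.05. In the ileum all 10 diamonds are filled and right of 0, and in the liver only that of Pdia6 is filled.

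The genotypes were then compared within each treatment in the ileum; these comparisons use the same libraries as those above and are no further evidence. With vehicle, 9 of the 10 members were lower in Villin-Cre than in floxed mice and 0 higher, Sdf2l1 being the exception, while 30.7% of all genes were called lower and 9.61% higher (limma). After scaling by the median of gene ratios 6 of 10 were lower and 0 higher, against 14.6% and 20.2% of all genes. Calr (-0.011), Dnajb9 (-0.16) and Herpud1 (-0.29) were then no longer called, and Sdf2l1 was uncalled but turned to 0.063. That scaling moved the share of higher calls among all calls from 23.8 to 58.1%. The median was -0.51 over the members and -0.18 over all genes. Pdia6 differed most, at 92.1, 102 and 94.1 CPM for floxed and 58.8, 56.9 and 57.8 CPM for Villin-Cre mice (-0.73 ± 0.069, adjusted p 4.91e-07, limma). Hsp90b1 (-0.62 ± 0.061) and Hspa5 (-0.59 ± 0.046) came next, Hspa5 with 307 to 322 CPM for floxed and 203 to 215 CPM for Villin-Cre mice. Sdf2l1 stood at 18.6, 19.1 and 20.3 CPM for floxed and at 17.4, 15.2 and 18.5 CPM for Villin-Cre mice, with a 95% interval of -0.39 to 0.028. All Villin-Cre libraries lay below all floxed ones for 10 of 10 members, by little for Sdf2l1, against 38.3% of all genes, and above them for 0, against 14.2%.

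With GW3965 the picture differed. Here 5 members were higher in Villin-Cre than in floxed mice (Hspa5, Dnajb9, Sdf2l1, Hsp90b1 and Calr) and 2 lower (Xbp1 and Pdia6), against 13.6% of all genes called higher and 38.3% lower (limma). The median was 0.24 over the members and -0.24 over all genes. After scaling by the median of gene ratios 8 were higher and 0 lower, against 25.7% and 23.5% of all genes. Pdia4 turned from -0.0032 to a called 0.28, and Xbp1 (0.092) and Pdia6 (0.073) changed sign and lost their calls. The share of higher calls among all calls went from 26.1 to 52.2%. Calr had the largest difference, 301, 304 and 343 CPM for floxed and 477, 446 and 475 CPM for Villin-Cre mice (0.56 ± 0.056, adjusted p 3.43e-07, limma). All Villin-Cre libraries lay above all floxed ones for 5 members, the same 5 that were called higher, and below them for 1, Pdia6, against 15.8% and 41.7% of all genes. Dnajb9 followed at 0.40 ± 0.11, adjusted p 0.00673 (limma). Without the ileal library that stands apart, Sdf2l1 (0.22) and Pdia6 (-0.15) were not called, and Herpud1 went from 0.25 to -0.065, uncalled in both.

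**Figure D3:**
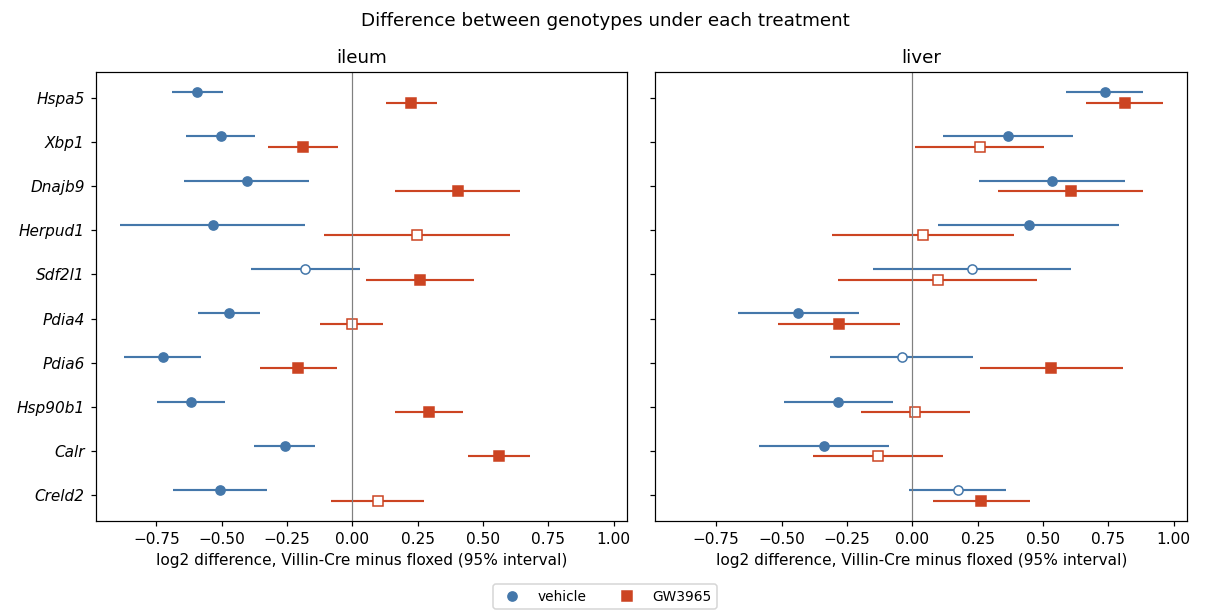
Log2 difference between Villin-Cre and floxed mice with its 95% interval (horizontal axes) for each gene in ileum and liver; circles are vehicle and squares GW3965, filled where the adjusted p of limma was under 0.05. In the ileum the vehicle values all lie left of 0 (-0.73 to -0.18), and in the liver Hspa5 lies furthest to the right under both treatments.

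Other genes of the compartment in the ileum were read from 3 lists, and no test compared a list with other genes. Among 32 further folding genes, GW3965 in floxed mice went with 21 lower and 1 higher, and among 38 genes of translocation, export and degradation with 25 lower and 2 higher, with medians of -0.41 and -0.40, against 20.9% of all genes lower and 14.7% higher. Hyou1, a large HSP70-like partner of BiP, went from 223 ± 6.94 to 121 ± 8.37 CPM (-0.88 ± 0.056), and Pdia3, the isomerase that works with calreticulin, from 316 ± 21.6 to 177 ± 10.6 CPM (-0.83 ± 0.062). Sec61a1, the channel subunit through which proteins enter the reticulum, fell by 0.60 on the log2 scale. In Villin-Cre mice the same lists held 8 higher and 11 lower (folding) and 11 higher and 10 lower (translocation and degradation), near the shares of 21.5% higher and 31.1% lower over all genes. P4hb, a disulfide isomerase, rose there from 520.2 ± 3.15 to 945 ± 8.73 CPM (0.86 ± 0.047), and Txndc5 fell (-0.91 ± 0.053). The interaction was positive for 15 and negative for 2 of the 32 folding genes, and positive for 20 and negative for 0 of the 38, against 14.6% and 18.4% of all genes. Between genotypes with vehicle, 22 of the 32 were lower and 1 higher, and 30 of the 38 lower and 0 higher, against 30.7% and 9.61% of all genes, and after scaling by the median of gene ratios 16 were lower and 1 higher, and 17 lower and 5 higher, against 14.6% and 20.2%. With GW3965 the counts were 5 higher and 13 lower, and 4 higher and 12 lower, against 13.6% and 38.3% of all genes, and that scaling turned them to 14 higher and 5 lower, and 18 higher and 1 lower, against 25.7% and 23.5%.

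The sensors and mediators of the response did not move with the chaperones as a block in the ileum. Of 25 such genes, 6 rose and 9 fell with GW3965 in floxed mice, against 14.7% of all genes higher and 20.9% lower. In Villin-Cre mice 8 rose and 8 fell, against 21.5% and 31.1%. The medians (-0.11 and -0.16) were close to those of all genes (-0.077 and -0.11). Creb3l3, a membrane-bound transcription factor of liver and small bowel that acts in lipid metabolism, rose in both, from 75.4 ± 3.46 to 159 ± 12.7 CPM for floxed and from 68.9 ± 2.93 to 339 ± 9.73 CPM for Villin-Cre mice. Trib3, a pseudokinase induced by the PERK branch, rose in floxed mice from 5.00 ± 1.13 to 13.1 ± 0.665 CPM (1.33 ± 0.14). The interaction was positive for 5 and negative for 7 of the 25, against 14.6% and 18.4% of all genes. With vehicle 10 were lower and 1 higher in Villin-Cre mice, against 30.7% and 9.61% of all genes, Atf6 among the lower ones (-0.50 ± 0.059). After scaling by the median of gene ratios 4 were lower and 6 higher, against 14.6% and 20.2%. With GW3965, 13 were lower and 6 higher, against 38.3% and 13.6%. After that scaling 5 were lower and 9 higher, against 23.5% and 25.7%.

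Markers of the cell types of the ileum moved with the same groups, and their part in the results on the chaperones was not tested. With GW3965 in floxed mice, 10 of 10 enterocyte markers rose (summed level 15159 to 15515 and 27418 to 32622 CPM) and 8 of 8 smooth muscle markers fell (7477 to 7507 and 3082 to 4590.2 CPM). In the same comparison 8 of 8 macrophage markers fell (248 to 262 and 106 to 124 CPM), 4 of 10 plasma cell markers fell and 2 rose (2664 to 2793 and 1101 to 1409 CPM), and 5 of 8 goblet cell markers rose and 2 fell (11379 to 12372 and 18113 to 23735 CPM). Over all genes 14.7% rose and 20.9% fell. In Villin-Cre mice 10 of 10 enterocyte markers rose (21653 to 21935 and 48574 to 49722 CPM), 8 of 8 smooth muscle markers fell (7963 to 8258 and 1258 to 1270.2 CPM), 7 of 8 macrophage markers fell (183 to 196 and 127 to 129 CPM), 7 of 10 plasma cell markers fell and 1 rose (3577 to 3672 and 1575 to 1618 CPM), and 3 of 8 goblet cell markers rose and 3 fell (12434 to 13668 and 13879 to 14263 CPM). Over all genes 21.5% rose and 31.1% fell. The interaction was negative for 8 of 8 smooth muscle, 4 of 8 goblet, 3 of 8 Paneth and 4 of 10 plasma cell markers (1 positive). It was positive for 5 of 8 macrophage and 5 of 10 enterocyte markers (1 negative), against 14.6% of all genes positive and 18.4% negative. Paneth cell markers, 8 in all, were lower in Villin-Cre than in floxed mice in 7 with vehicle and in 8 with GW3965, at 471 to 489, 209 to 1084, 171 to 178 and 89.8 to 100.3 CPM in floxed vehicle, floxed GW3965, Villin-Cre vehicle and Villin-Cre GW3965 libraries. Other lists differed between genotypes too. With vehicle, 8 of 10 enterocyte markers were higher and 1 lower, 6 of 8 macrophage markers lower, 5 of 10 plasma cell markers higher, and 0 smooth muscle markers called. With GW3965, 9 of 10 enterocyte markers were higher, and 8 of 8 smooth muscle and 7 of 8 goblet cell markers lower. Over all genes 30.7% were called lower and 9.61% higher with vehicle, and 38.3% and 13.6% with GW3965. None of these markers was under 0.1 CPM in every library of a group, and pancreatic acinar markers, whose defining gene Amy2a5 was under 0.1 CPM, summed to at most 12.5 CPM in vehicle libraries.

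In the liver the genotype comparison held the larger differences. With vehicle, 4 members were higher in Villin-Cre than in floxed mice (Hspa5, Xbp1, Dnajb9 and Herpud1), 3 lower (Pdia4, Hsp90b1 and Calr) and 3 not called, while 45.1% of all 17520 genes tested were called higher and 11.7% lower (limma). The median of the members, 0.20, lay below that of all genes, 0.26. Scaling by the median of gene ratios left 1 higher (Hspa5) and 4 lower (Pdia4, Calr, Hsp90b1 and Pdia6), against 21.6% and 22.2% of all genes. The share of higher calls among all calls went from 79.3 to 49.3% with that scaling. The direction for Xbp1 (0.08), Dnajb9 (0.25) and Herpud1 (0.16) stayed positive there without a call.

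Hspa5 stood at 519.8, 536 and 527 CPM for floxed and 866, 879 and 891 CPM for Villin-Cre livers given vehicle. Every Villin-Cre library lay above every floxed one for 6 members (Hspa5, Xbp1, Dnajb9, Herpud1, Sdf2l1 and Creld2) and below for the 3 that were called lower, against 52.1% and 15.3% of all genes. The log2 difference was 0.74 ± 0.069, adjusted p 5.71e-07 (limma), and 0.45, still called, after scaling by the median of gene ratios. Dnajb9, its J-domain partner, went the same way, from 28.8, 32.3 and 33.1 CPM to 46.1, 44.3 and 46.4 CPM (0.53 ± 0.13, adjusted p 0.00287, limma). Herpud1 stood at 219.5 to 224 CPM for floxed and 299 to 304 CPM for Villin-Cre mice (0.45 ± 0.16, adjusted p 0.0299, limma), and Xbp1 at 131 to 144 and 172 to 187 CPM (0.37 ± 0.12, adjusted p 0.0145, limma). Calreticulin, GRP94 and 1 of the isomerases went the other way: Pdia4 stood at 246, 239.6 and 238 CPM for floxed and 173, 182 and 179.6 CPM for Villin-Cre mice (-0.44 ± 0.11, adjusted p 0.00331, limma). Calr stood at 552 to 581 and 435 to 464 CPM (-0.34 ± 0.12, adjusted p 0.0223, limma) and Hsp90b1 at 309.9 to 326 and 258 to 268 CPM (-0.28 ± 0.097, adjusted p 0.0231, limma). Under vehicle, BiP and its HSP90 partner thus had opposite signs in the liver, whereas both were lower in the ileum of the same genotype.

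With GW3965, 4 members were higher in Villin-Cre than in floxed livers (Hspa5, Dnajb9, Pdia6 and Creld2) and 1 lower (Pdia4), against 40.9% of all genes called higher and 15% lower (limma). The median was 0.18 over the members and 0.21 over all genes. Hspa5 stood at 395, 497 and 486 CPM for floxed and 792, 809 and 808 CPM for Villin-Cre mice (0.81 ± 0.069, adjusted p 1.49e-07, limma). The genotypes did not overlap for the 4 members called higher, against 42.7% of all genes, and 0 members lay wholly lower in Villin-Cre mice, against 15.8%. Pdia6 stood at 115, 185 and 181 CPM for floxed and 233, 227 and 219.8 CPM for Villin-Cre mice (0.53 ± 0.13, adjusted p 0.00254, limma), and its low floxed library is the one that stands apart. Creld2 stood at 20.4 ± 1.91 and 24.6 ± 1.4 CPM (0.26 ± 0.086, adjusted p 0.0178, limma). Scaling by the median of gene ratios left Hspa5 (0.57) and Dnajb9 (0.36) higher and made 3 lower (Calr at -0.38, Pdia4 at -0.52 and Hsp90b1 at -0.23, which turned sign). Over all genes 25.8% were then called higher and 25.2% lower, and the share of higher calls among all calls was 50.6% against 73.1%. Without the library that stands apart, 5 were higher (Xbp1 at 0.45 in addition, Pdia6 at 0.31) and 4 lower (Pdia4, Calr, Herpud1 at -0.25 and Hsp90b1 at -0.15). Fits that left out 1 library at a time called 8904 to 10381 of all 17520 genes here.

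**Figure D4:**
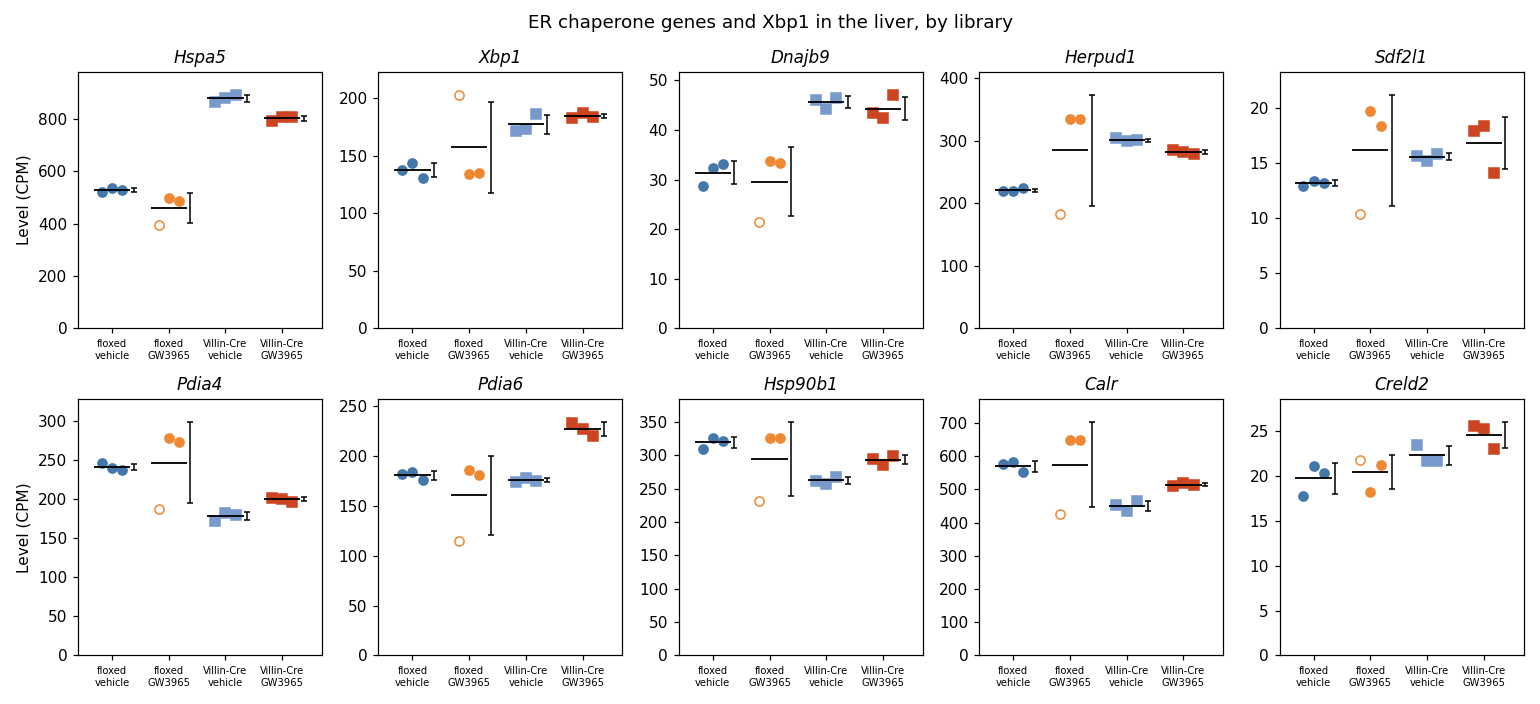
Levels in the liver in CPM (vertical axes, linear from 0) for the 10 genes, with 1 point per library; circles are floxed and squares Villin-Cre mice, horizontal lines are group means and bars beside them ± 1 SD (n = 3), and the open circle is the library that stands apart. Hspa5 lies at 792 to 891 CPM in the Villin-Cre libraries and at 395 to 536 CPM in the floxed ones, and the open circle is the lowest of its group for 8 of the 10 genes.

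GW3965 itself went with few calls among the members in the liver. In floxed mice 1 member fell and 0 rose, against 19.7% of all genes called lower and 10.4% higher (limma), with medians of -0.0029 and -0.044. The member was Hspa5, at 519.8, 536 and 527 CPM with vehicle and 395, 497 and 486 CPM with GW3965 (-0.21 ± 0.069, adjusted p 0.0347, limma), and it was not called with scaling by the median of gene ratios, without a filter or in a fit of the 2 groups alone. Of the calls over all genes 34.5% were higher, and 46.4% after that scaling, which called 13.8% of all genes higher and 16% lower. Without the library that stands apart 4 members rose (Herpud1 at 0.60, Sdf2l1 at 0.51, Pdia4 at 0.20 and Calr at 0.19) and Hspa5 fell (-0.10). Fits that left out 1 library at a time called 4195 to 6823 of all 17520 genes here. Herpud1 stood at 219.5, 220.1 and 224 CPM with vehicle and 182, 336 and 336 CPM with GW3965, so 2 of the GW3965 libraries lay above and 1 below all vehicle libraries.

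In Villin-Cre livers limma called 0 of the 10 members with GW3965, 1 had an unadjusted p under 0.05, and voom on the recovered reads also called 0; over all genes 2.85% were called higher and 9.03% lower. The medians were 0.12 over the members and -0.081 over all genes. Pdia6 came nearest, with 174, 178 and 175 CPM with vehicle and 233, 227 and 219.8 CPM with GW3965 (0.37 ± 0.13, adjusted p 0.0786, limma). Its groups did not overlap, as was so for 4 members with GW3965 above (10% of all genes) and for 2, Hspa5 and Herpud1, with GW3965 below (29.9%). Pdia6 was called after scaling by the median of gene ratios (0.46), against 5.31% of all genes called higher and 3.56% lower. That scaling took the share of higher calls among all calls from 24% to 59.9%. Where the spread did not include the library apart, either by fitting the 2 groups alone or by leaving that library out, 4 members rose and 2 fell. The fit of the 2 groups alone called 1143 of all 17520 genes higher and 3675 lower. Fits that left out 1 library at a time called 1084 to 4661 genes. The interaction in the liver was called for 1 member, Pdia6 (0.57 ± 0.18, adjusted p 0.0388, limma), against 10.2% of all genes with a positive and 9.7% with a negative interaction. Without the library that stands apart Pdia6 stood at 0.35, Hsp90b1 (0.13) was called too, and Herpud1 (-0.70) and Sdf2l1 (-0.41) were called negative. For the interaction, such fits with 1 library left out called 2673 to 5718 of all genes.

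Among the sensors and mediators in the liver, 17 of 24 tested were higher and 3 lower in Villin-Cre than in floxed mice with vehicle, and 21 higher and 0 lower with GW3965. Their medians were 0.61 and 0.90, where those of all genes were 0.26 and 0.21. Of all genes 45.1% and 40.9% were called higher, and 11.7% and 15% lower. After scaling by the median of gene ratios 14 were higher and 4 lower with vehicle (21.6% and 22.2% of all genes), and 16 and 1 with GW3965 (25.8% and 25.2%). Ddit3, which encodes the stress-induced factor CHOP, stood at 12.9 ± 0.634 CPM for floxed and 27.9 ± 1.13 CPM for Villin-Cre mice with vehicle and at 9.11 ± 0.554 and 31.8 ± 2.45 CPM with GW3965. Ppp1r15a, the phosphatase subunit that restores translation, stood at 18.1 ± 1.28 and 46.1 ± 2.62 CPM with vehicle (1.33 ± 0.087). Atf3 stood at 4.79 ± 2.35 and 53.7 ± 1.77 CPM with GW3965 (3.44 ± 0.2), and Atf6 at 107 ± 4.91 and 200.5 ± 5.46 CPM (0.91 ± 0.046). Of the 32 folding genes 11 were higher and 5 lower with vehicle, and 19 and 4 with GW3965; of the 38 genes of translocation, export and degradation 22 were higher and 4 lower, and 30 and 6. The medians with vehicle, 0.088 for the folding genes and 0.23 for the 38, lay below that of all genes. That scaling turned the balance with vehicle to 5 higher and 18 lower of the 32 and 2 higher and 13 lower of the 38, and left 13 and 10, and 24 and 7, with GW3965. With GW3965 in floxed mice 16 of the 32 fell and 2 rose, 29 of the 38 fell and 3 rose, and 14 of the 24 fell and 1 rose, against 19.7% of all genes lower and 10.4% higher. In Villin-Cre mice at most 3 of a list were called in 1 direction, against 2.85% of all genes higher and 9.03% lower. After that scaling 10 of the 32, 4 of the 38 and 8 of the 24 rose and 0 fell, against 5.31% and 3.56%. The interaction was positive for 12 of the 32, 22 of the 38 and 10 of the 24. It was negative for 0, 1 and 1, against 10.2% of all genes positive and 9.7% negative.

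Liver markers moved with the genotype, and their part in these results was not tested. Of the hepatocyte markers 9 were found, and 9 were lower in Villin-Cre than in floxed mice with vehicle (80245 to 82643 and 52245 to 52759 CPM) and 6 with GW3965 (60134 to 71276 and 56530 to 58535 CPM). All 8 macrophage markers were higher in Villin-Cre livers under both treatments (571 to 576 and 1115 to 1128 CPM with vehicle, 379 to 536 and 773 to 795 CPM with GW3965). Of 7 smooth muscle markers tested, 4 were higher and 0 lower with vehicle, and 5 and 1 with GW3965. Over all genes 45.1% and 40.9% were called higher, and 11.7% and 15% lower. Marker counts were not repeated with scaling by the median of gene ratios. Of the plasma cell markers, at 287 to 392 CPM in sum over all liver libraries, Tnfrsf17 was under 0.1 CPM in floxed livers. Of the 9 tested, 5 were higher and 1 lower in Villin-Cre livers with vehicle, and 1 higher and 5 lower with GW3965. Goblet cell markers summed to at most 3.25 CPM, with Clca1 under 0.1 CPM in every group.

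The change with GW3965 was then compared between ileum and liver over 16322 genes tested in both. In floxed mice it was more negative in the ileum for 8 members and more positive for 0, with Dnajb9 and Herpud1 not called, against 14% of all genes more negative and 15.2% more positive (limma). Creld2 differed most (-0.998 ± 0.12, adjusted p 6.94e-07, limma), followed by Sdf2l1 (-0.92), Xbp1 (-0.77) and Pdia6 (-0.67), and Hspa5 differed by -0.53 ± 0.082, adjusted p 2.47e-05 (limma). The count was 8 without either of the libraries that stand apart, and fits that left out 1 library at a time called 4146 to 5217 of all genes. In Villin-Cre mice 3 were more positive in the ileum (Hspa5, Dnajb9 and Herpud1) and 4 more negative (Xbp1, Pdia4, Pdia6 and Creld2), against 20.7% and 22.1% of all genes. Herpud1 (1.18 ± 0.26, adjusted p 0.000636, limma) and Dnajb9 (0.94 ± 0.18, adjusted p 0.000138, limma) had the largest positive and Pdia6 (-0.72 ± 0.15, adjusted p 0.000399, limma) the largest negative value.

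The members followed Hspa5 to different degrees. Across the 12 ileal libraries, which share groups and scaling, Pearson's r of log2 levels to Hspa5 was 0.985 for Hsp90b1, 0.922 for Pdia4, 0.878 for Creld2, 0.86 for Pdia6, 0.82 for Xbp1, 0.767 for Sdf2l1 and 0.71 for Calr, and 0.028 for Dnajb9 and -0.08 for Herpud1. Across the 12 liver libraries it was 0.943 for Dnajb9, 0.605 for Creld2, 0.579 for Pdia6, 0.522 for Herpud1, 0.505 for Xbp1 and 0.388 for Sdf2l1, and it was negative for Hsp90b1 (-0.263), Calr (-0.469) and Pdia4 (-0.666). Dnajb9 therefore had the highest value of the members in the liver and a value near 0 in the ileum. The non-member genes most like Hspa5 in the ileum, among the ranked genes with a mean of at least 5 CPM, were Pdia3 (r = 0.979), Manf, Psma1, Elovl6, Gdpd1 and Tmem258 (0.973), of which Pdia3 and Manf belong to the folding list. In the liver they were Flna (0.996), Rars, Actr3, Itgb2, Snx30 and Abi1 (0.995), none of them on a list of the compartment. Predicted, Rik and accession-named genes, pseudogenes, mitochondrially encoded genes, and immunoglobulin and T cell receptor segments were not ranked. These values describe the libraries and carry no test.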

How the data were processed

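Per the labels' protocols, total RNA of ileum and liver lost its ribosomal RNA, was copied with random hexamers and was read in pairs of 150 bases. The submitters' processing notes name STAR 2.5.1a, Subread, featureCounts 1.4.6-p5 and GRCm38. The annotation release, strand handling and log formula are stated in no source used here. The deposited values are log2 values, made by the authors as 1 table per tissue with 40757 entries, of which 276 exact repeats were dropped. The lowest value, -5.62, was the same in all 24 libraries and was taken as 0 reads. This turned 100% of values into whole reads within 0.05 reads and gave CPM.

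limma 3.58.1 in R 4.3.3 was run on log2(CPM + 0.5), which understates the change of low genes. The filter kept genes that reached 0.5 CPM in 3 or more libraries. Each group had its own mean, all 12 libraries of the tissue shared a spread with an empirical Bayes trend, and p-values were adjusted over every gene tested by Benjamini-Hochberg (threshold 0.05). The difference between tissues used all 24 libraries. Groups and replicate numbers come from the sample titles. All members are named; from other lists, at most 4 genes with the smallest p per comparison could be named, and 6 genes per tissue for likeness to Hspa5. The members and lists were chosen with earlier results of these data known. Alternatives were the scaling, pseudocount, filter, deposited values, groups fitted, replicate block, voom, averaging of close libraries and leaving out each library. Promoter windows are from RefSeq. Figures were drawn with matplotlib 3.10.9.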

Additional observations from a re-analysis of the deposited data

Results flagged for a closer look

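In the ileum, the change with GW3965 differed between the genotypes for all 10 genes by the interaction test of limma, with log2 differences (Villin-Cre less floxed) of Hspa5 0.82, Xbp1 0.32, Dnajb9 0.81, Herpud1 0.78, Sdf2l1 0.44, Pdia4 0.47, Pdia6 0.52, Hsp90b1 0.91, Calr 0.82 and Creld2 0.60. Over all genes tested in the ileum 14.6% had a positive and 18.4% a negative interaction past the threshold. In the liver the change differed between the genotypes for Pdia6 0.57, against 10.2% of all genes positive and 9.7% negative. With the close libraries averaged, 0 of these interactions were called, with 3 members in the ileum and 0 in the liver at an unadjusted p under 0.05.

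Between the tissues, the change with GW3965 in floxed mice (ileum less liver) differed for Hspa5 -0.53, Xbp1 -0.77, Sdf2l1 -0.92, Pdia4 -0.63, Pdia6 -0.67, Hsp90b1 -0.61, Calr -0.52 and Creld2 -0.998. Over all genes tested in both tissues 14% were more negative and 15.2% more positive in the ileum there. In Villin-Cre mice the change differed for Hspa5 0.22, Xbp1 -0.35, Dnajb9 0.94, Herpud1 1.18, Pdia4 -0.32, Pdia6 -0.72 and Creld2 -0.49. Of all genes 22.1% were more negative and 20.7% more positive in that comparison. The libraries of the 2 tissues were treated as separate, since no label links a library to an animal.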

How the results depend on the processing

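With close libraries averaged, limma called 0 of the 10 members in all 12 comparisons, and the number of genes called over all became 192 (ileum GW3965 effect in floxed), 1461 (ileum GW3965 effect in Villin-Cre), 21 (ileum genotype with vehicle), 1231 (ileum genotype with GW3965), 14 (ileum interaction), 5 (liver GW3965 effect in floxed), 0 (liver GW3965 effect in Villin-Cre), 163 (liver genotype with vehicle), 1590 (liver genotype with GW3965), 0 (liver interaction), 1 (ileum less liver GW3965 effect in floxed) and 10 (ileum less liver GW3965 effect in Villin-Cre). That setting leaves fewer units. It also turned Pdia4 to 0.011 (ileum genotype with GW3965), Pdia4 to -0.085 (liver GW3965 effect in floxed) and Sdf2l1 to 0.0067 (liver interaction), none of them called in either setting. Scaling by the median of gene ratios turned the sign of 13 of 120 member values, to 0.063 for Sdf2l1 (ileum genotype with vehicle), 0.092 for Xbp1 (ileum genotype with GW3965), 0.28 for Pdia4 (ileum genotype with GW3965), 0.073 for Pdia6 (ileum genotype with GW3965), 0.041 for Calr (liver GW3965 effect in floxed), 0.053 for Dnajb9 (liver GW3965 effect in Villin-Cre), 0.0015 for Herpud1 (liver GW3965 effect in Villin-Cre), -0.047 for Sdf2l1 (liver genotype with vehicle), -0.11 for Creld2 (liver genotype with vehicle), -0.20 for Herpud1 (liver genotype with GW3965), -0.14 for Sdf2l1 (liver genotype with GW3965), -0.23 for Hsp90b1 (liver genotype with GW3965) and 0.026 for Herpud1 (ileum less liver GW3965 effect in floxed). It called 0 of the members for the liver GW3965 effect in floxed and 1 of the members for the liver GW3965 effect in Villin-Cre. Without a filter, with more genes tested, 0 members were called for the liver GW3965 effect in floxed, 4 members were called for the liver genotype with vehicle, 0 members were called for the liver interaction and 4 members were called for the ileum less liver GW3965 effect in Villin-Cre. With only the groups compared, 0 members (or 3458 genes) were called for the liver GW3965 effect in floxed and 6 members (or 4818 genes) were called for the liver GW3965 effect in Villin-Cre; the cause of these changes with scaling, filter and groups fitted was not tested. Leaving out 1 library at a time, members called ranged from 4 to 7 (ileum genotype with GW3965), 0 to 5 (liver GW3965 effect in floxed), 0 to 6 (liver GW3965 effect in Villin-Cre), 4 to 9 (liver genotype with vehicle), 3 to 9 (liver genotype with GW3965), 0 to 4 (liver interaction) and 4 to 8 (ileum less liver GW3965 effect in Villin-Cre), and genes called from 1084 to 4661 (liver GW3965 effect in Villin-Cre) and 2673 to 5718 (liver interaction). The sign of a log2 difference depended on 1 library for Dnajb9 from -0.0061 to 0.20 (ileum GW3965 effect in floxed), Herpud1 from -0.065 to 0.42 (ileum genotype with GW3965), Pdia4 from -0.031 to 0.027 (ileum genotype with GW3965), Xbp1 from -0.029 to 0.27 (liver GW3965 effect in floxed), Dnajb9 from -0.22 to 0.098 (liver GW3965 effect in floxed), Pdia4 from -0.092 to 0.20 (liver GW3965 effect in floxed), Pdia6 from -0.33 to 0.020 (liver GW3965 effect in floxed), Hsp90b1 from -0.22 to 0.030 (liver GW3965 effect in floxed), Calr from -0.12 to 0.19 (liver GW3965 effect in floxed), Creld2 from -0.024 to 0.12 (liver GW3965 effect in floxed), Herpud1 from -0.25 to 0.19 (liver genotype with GW3965), Sdf2l1 from -0.18 to 0.26 (liver genotype with GW3965), Hsp90b1 from -0.15 to 0.094 (liver genotype with GW3965), Hspa5 from -0.029 to 0.14 (liver interaction), Xbp1 from -0.21 to 0.087 (liver interaction), Dnajb9 from -0.14 to 0.18 (liver interaction), Sdf2l1 from -0.41 to 0.031 (liver interaction), Pdia4 from -0.031 to 0.26 (liver interaction), Dnajb9 from -0.0063 to 0.31 (ileum less liver GW3965 effect in floxed), Herpud1 from -0.30 to 0.31 (ileum less liver GW3965 effect in floxed) and Hsp90b1 from -0.035 to 0.055 (ileum less liver GW3965 effect in Villin-Cre). Over the 3 other lists, scaling by the median of gene ratios, tried there after seeing the data, moved the number called by over 1.5 times to 10 folding genes, 4 genes of translocation and degradation and 8 sensors and mediators for the liver GW3965 effect in Villin-Cre, and to 15 genes of translocation and degradation for the liver genotype with vehicle. A pseudocount of 2 changed no verdict on 120 member values, the deposited log2 values changed 1 and voom on recovered reads 2. Replicate numbers did not pair the samples: correlations of deviations between libraries of the same number were -0.155 to 0.238 (median 0.010) in the ileum and -0.100 to 0.095 (median 0.025) in the liver, and 5 of 12 and 6 of 12 libraries correlated best with their own number; the replicate block kept 119 of 120 member verdicts, and 8 in place of 9 members were called for GW3965 in Villin-Cre ileum. Depth was not limiting for these genes, the lowest of which had 10.4 CPM in any library.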

Other observations

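The liver library that stands apart, replicate 1 of floxed mice given GW3965, was the lowest of its group for 8 members and the highest for 2, Creld2 and Xbp1. Set against all 12 liver libraries it was the lowest for 7 members and the highest for Xbp1, at 203 CPM, while Hspa5 stood there at 395 CPM, Herpud1 at 182 CPM and Pdia6 at 115 CPM. In the ileum, replicate 3 of the same treatment group was the lowest of its group for 5 members and the highest for 4, and only Pdia4 and Sdf2l1 were the lowest of all 12 ileal libraries there. These are single libraries, chosen after their values were seen, and no test was made.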
